A study of Caenorhabditis elegans with 6 samples.

Results

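The cadherin genes of Caenorhabditis elegans were examined in RNA of PVD and OLL neurons and of whole larvae. Members were taken by name, as every probe set of the Affymetrix C. elegans array annotated to 1 gene only, where that gene was hmr-1, fmi-1, cdh-1, cdh-3, cdh-4, cdh-5, cdh-7, cdh-8, cdh-9 or cdh-10. This gave 18 probe sets for 10 genes, among 22548 probe sets tested and 17118 named genes. Of the 10 genes, 5 had several probe sets and 5 had a single one. The genes lie on 6 chromosomes by the RefSeq annotation of assembly WBcel235. A suffix of _s_at or _x_at marks a probe set that may read more than 1 transcript, and 6 of the 18 had one.

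The neuronal samples were 3 preparations of poly(A) RNA from PVD and OLL neurons, the branched nociceptors of the body and a class of head sensory neurons. It was recovered by mRNA tagging, in which a FLAG-tagged PAB-1, a protein that binds poly(A) tails, was made from the ser-2prom3B promoter fragment and pulled down with its mRNA. They were set against 3 preparations of total RNA from whole animals, which contain the same neurons. All animals were L3/L4 larvae kept at 25 °C, and the same NuGEN kit amplified every sample. Tissue, type of RNA and pull-down changed together, and their parts cannot be told apart. The labels call the neuronal samples biological replicates and only number the whole-animal samples, so p-values reflect the spread among these samples, part of which may be technical.

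Cadherins are membrane proteins whose extracellular repeats bind calcium and hold cells together. The classical cadherin HMR-1 joins epithelial cells through beta-, alpha- and p120-catenin, which connect it to actin, and a longer form of it is made in neurons. Fat-like and Dachsous-like cadherins are very large proteins that in flies act in tissue polarity and growth control. Flamingo cadherins carry a seven-pass membrane part, act in planar polarity and guide axons and dendrites in worms, flies and mammals.

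Signals are given as the authors' deposited RMA values on the log2 scale, so that a difference of 1 is a 2-fold change. Probe sets with an adjusted p under 0.05 in limma are referred to as called, where p was adjusted by Benjamini-Hochberg over the 22548 probe sets, and every adjusted p below comes from that fit unless another is named. A no-target background was set on each array at the 95th percentile of 32 controls that target bacterial or yeast transcripts. This level was 2.28 to 2.44 for PVD and OLL arrays and 2.95 to 3.43 for whole-animal arrays. Arrays correlated at 0.954 to 0.988 within the PVD and OLL group, at 0.938 to 0.973 within the whole-animal group and at 0.871 to 0.926 between groups. Of 12 PVD and OLL markers, 7 were called higher, 0 lower and 5 neither way, beside 8.1% of all genes called higher and 4.66% lower by the brightest probe set of each. Among those called was des-2, a nicotinic receptor subunit gene, with a difference of 4.09. The promoter's own gene ser-2 had means of 2.91 in PVD and OLL RNA and 2.19 in whole animals (adjusted p = 0.202). F49H12.4, a PVD marker, averaged 2.75 in PVD and OLL RNA and 2.72 in whole animals, and both genes lay below background on all 3 whole-animal arrays.

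Within the cadherin family, cdh-10, cdh-7, fmi-1, cdh-1 and cdh-9 were higher in PVD and OLL RNA, each in 1 probe set, and no cadherin was called lower. The classical cadherin hmr-1 was not called in any of its 5 probe sets, nor were cdh-3, cdh-4, cdh-5 and cdh-8. The 5 calls among 18 probe sets stand beside 9.31% of all probe sets called higher, and the 0 lower calls beside 4.28% called lower. The median difference was 0.54 over the 18 probe sets and -0.03 over all probe sets. Differences within the family ran from -1.002 to 2.52, and 15 of the 18 were above 0, against 48.3% of all probe sets. The arrays of the groups did not overlap for 7 probe sets that were higher and 1 that was lower in PVD and OLL RNA, beside 20.4% and 20.1% of all probe sets. As the RNA is from many cells, fewer expressing cells and less RNA per cell cannot be told apart. All 5 calls also held, in the same direction, after 2 further normalizations and 3 ways of centring the arrays. The genes with a called probe set lie on 5 different chromosomes.

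**Figure D1:**
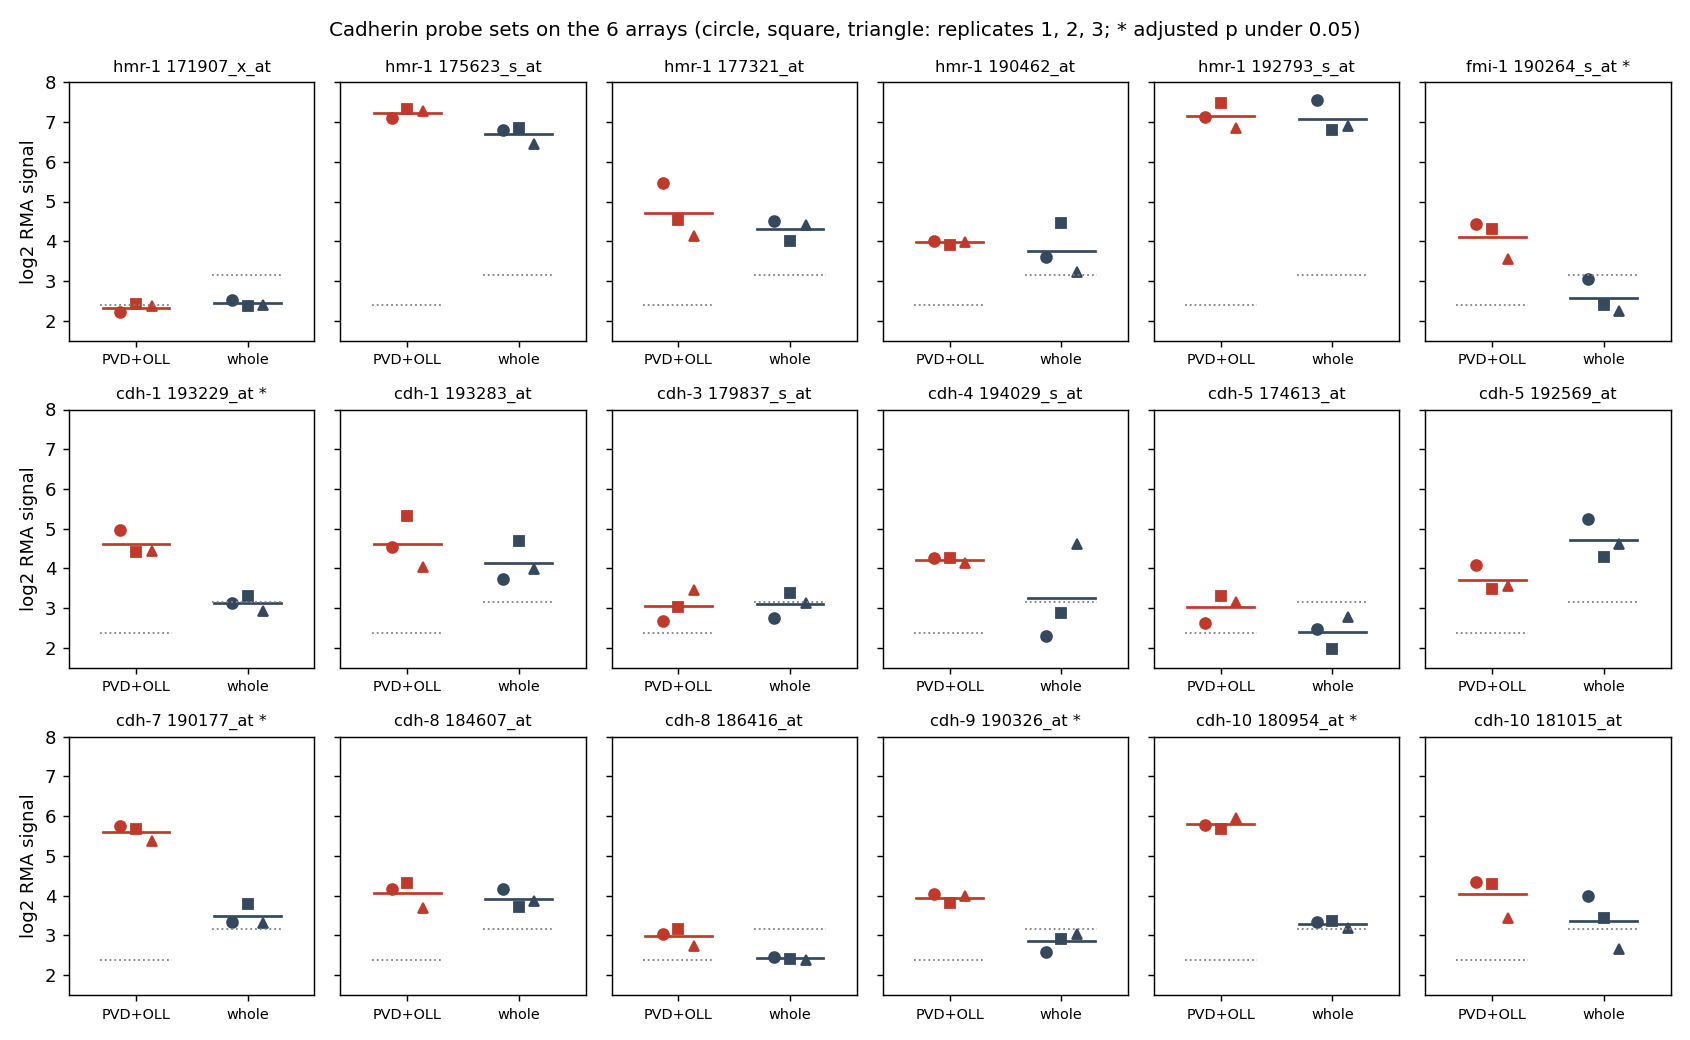
Log2 RMA signal of each of the 18 cadherin probe sets, 1 panel each, with the 3 PVD and OLL arrays (red) left of the 3 whole-animal arrays (dark blue). Solid lines are group means, dotted grey lines the mean no-target background of the group's arrays, and stars mark called probe sets; for cdh-10 180954_at the PVD and OLL arrays lay at 5.69 to 5.95 and the whole-animal arrays at 3.18 to 3.35.

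The largest difference was in cdh-10, one of the cadherins known by number only. Probe set 180954_at read 5.78, 5.69 and 5.95 in PVD and OLL replicates 1, 2 and 3, against 3.33, 3.35 and 3.18 in the whole-animal replicates. All 3 neuronal arrays were high and close together, and the nearest arrays of the groups were 2.33 apart. The whole-animal values sat near background, above it on 2 of 3 arrays. The difference was 2.52 ± 0.18 (SE, n = 3 arrays per group, adjusted p = 0.00221), or 5.72-fold. Among all 22548 probe sets it ranked 13 by p-value and 85 by size of the rise. The second probe set of cdh-10, 181015_at, read 4.35, 4.30 and 3.44 in PVD and OLL RNA and 3.996, 3.44 and 2.65 in whole animals. These groups overlapped, and its difference of 0.67 was not called (95% interval -0.25 to 1.59, adjusted p = 0.274). The gap between the differences of the probe sets was 1.85, with arrays that did not overlap and an exact two-sided permutation p of 0.1, the smallest that 3 against 3 arrays can give. The sources used here do not say which exons each probe set reads. Control probe sets for the ends of catalase, a worm transcript, differed by 4.57 to 5.21 (log2, 3′ minus 5′ end) on PVD and OLL arrays and by 2.87 to 3.44 on whole-animal arrays. The same measure was also higher on every PVD and OLL array for actin, lower for Gapdh and overlapping for gly14 and ubiquitin. Its part in the disagreement between probe sets was not tested.

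cdh-7, likewise known by number, had a single probe set and the next largest difference. Its signal was 5.75, 5.67 and 5.38 in PVD and OLL replicates 1, 2 and 3, against 3.33, 3.80 and 3.304 in the whole-animal replicates. The groups were 1.59 apart at their nearest arrays, and all 6 arrays exceeded background. cdh-7 was the one called cadherin probe set measured above background on every whole-animal array. The difference was 2.12 ± 0.22 (SE, n = 3 arrays per group, adjusted p = 0.00439), or 4.35-fold, and it ranked 84 by p-value and 202 by size among all probe sets.

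The Flamingo gene fmi-1, which in the worm guides follower axons of the ventral nerve cord, was also higher. Its only probe set read 4.43, 4.32 and 3.55 in PVD and OLL RNA, with replicate 3 the lowest, against 3.04, 2.40 and 2.24 in whole animals. All 3 whole-animal arrays lay below the background level, so the fold is a bound: fmi-1 was at least 1.92-fold higher, computed against that level. The fitted difference was 1.53 (n = 3 arrays per group, adjusted p = 0.0221). It was no longer called without PVD and OLL replicate 1 (adjusted p = 0.0769), without PVD and OLL replicate 2 (0.0916) and without whole-animal replicate 2 (0.0724), while the difference stayed between 1.37 and 1.81. The probe set name, 190264_s_at, marks one that can match several transcripts.

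cdh-1, a large cadherin related to Dachsous of flies, was higher in 1 of its 2 probe sets. Probe set 193229_at gave 4.97, 4.42 and 4.44 in PVD and OLL RNA, against 3.14, 3.31 and 2.93 in whole animals, where it exceeded background on 1 of 3 arrays. The groups were 1.11 apart at their nearest, and the difference was 1.48 ± 0.23 (SE, n = 3 arrays per group, adjusted p = 0.00929), or 2.80-fold. Probe set 193283_at read 4.53, 5.31 and 4.03 in PVD and OLL RNA and 3.74, 4.70 and 3.97 in whole animals. It overlapped between groups and its difference of 0.49 was not called (95% interval -0.40 to 1.38, adjusted p = 0.401). The gap of 0.996 between the differences of these probe sets had an exact permutation p of 0.2.

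cdh-9 showed the smallest of the called differences. The PVD and OLL arrays read 4.04, 3.81 and 3.98, against 2.58, 2.91 and 3.04 in whole animals, where 1 of 3 arrays exceeded background. Neuronal and whole-animal arrays were 0.77 apart at their nearest. The difference was 1.10 ± 0.20 (SE, n = 3 arrays per group, adjusted p = 0.0159), or 2.14-fold. It was not called without PVD and OLL replicate 1 (adjusted p = 0.0662) or replicate 2 (0.0606).

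**Figure D2:**
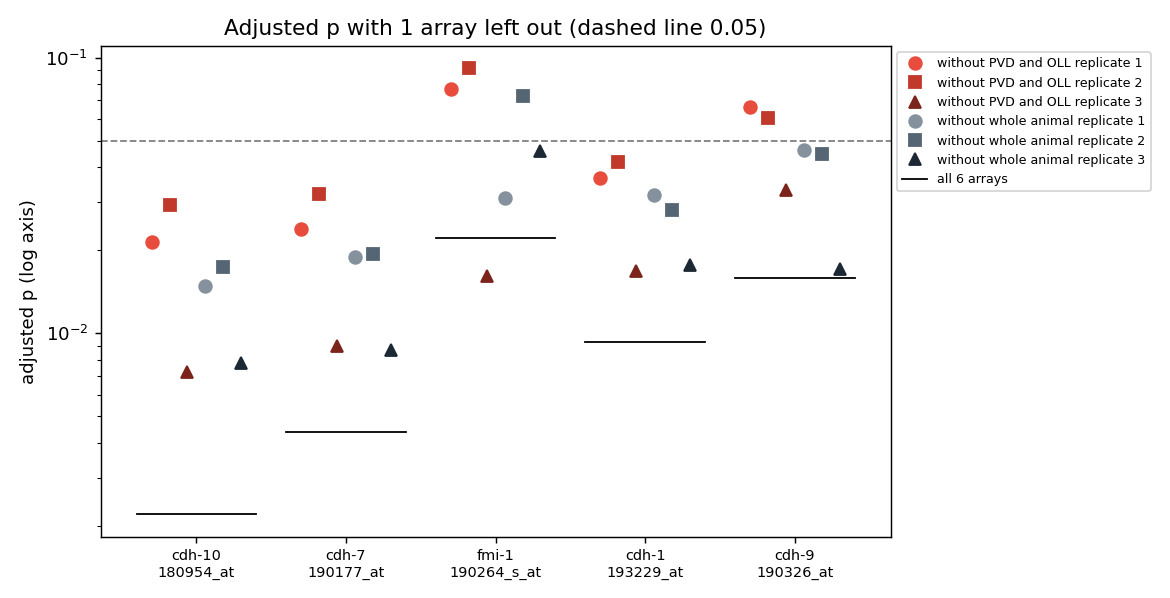
Adjusted p (log axis) of the 5 called cadherin probe sets with each of the 6 arrays left out in turn; black bars are the fit on all 6 arrays and the dashed line is 0.05. The calls of cdh-10, cdh-7 and cdh-1 stayed under 0.05 in 6 of 6 runs, with adjusted p up to 0.0292, 0.0320 and 0.0419, while fmi-1 passed in 3 and cdh-9 in 4.

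The classical cadherin gene hmr-1, the core of epithelial adherens junctions, had no difference past the threshold in any probe set. Probe set 175623_s_at read 7.10, 7.32 and 7.27 in PVD and OLL RNA and 6.81, 6.86 and 6.45 in whole animals. These arrays did not overlap, but the difference of 0.53 was not called (95% interval 0.06 to 0.99, adjusted p = 0.120). Probe set 192793_s_at gave 7.12, 7.48 and 6.85 in PVD and OLL RNA and 7.55, 6.81 and 6.90 in whole animals. Its groups overlapped throughout, with a difference of 0.06 and an interval of -0.58 to 0.70 (adjusted p = 0.891). Probe sets 177321_at and 190462_at, at means of 4.70 and 3.97 in PVD and OLL RNA and 4.31 and 3.76 in whole animals, differed by 0.39 (interval -0.43 to 1.21) and 0.21 (-0.52 to 0.95). The remaining one, 171907_x_at, exceeded background on 1 of 3 PVD and OLL arrays and on 0 of 3 whole-animal arrays, and no fold is given. The sources used here do not say which probe sets read the neuronal form of hmr-1. None of the 10 pairs of hmr-1 probe sets had an adjusted exact permutation p under 0.35. With 3 against 3 arrays the unadjusted p cannot go under 0.1, so this test could not show whether the probe sets differ. The pair of 171907_x_at and 175623_s_at was at 0.1 before adjustment, with arrays that did not overlap.

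Of the Fat-like genes, cdh-4, which acts in axon guidance and neuroblast migration, varied widely between the whole-animal arrays. It read 4.26, 4.26 and 4.14 in PVD and OLL RNA, against 2.29, 2.89 and 4.61 in whole animals. The neuronal arrays agreed closely (SD 0.07), and whole-animal replicate 3 stood above all of them while replicates 1 and 2 lay below background. Its difference of 0.96 was not called (95% interval -0.28 to 2.20, adjusted p = 0.248). Without whole-animal replicate 3 the difference was 1.64 and was called (adjusted p = 0.0124), and without whole-animal replicate 1 it was 0.48 (adjusted p = 0.546). With array weights it was 1.38 and was called (adjusted p = 0.0198). cdh-3, known for shaping an epithelial cell of the tail, gave 2.68, 3.02 and 3.47 in PVD and OLL RNA and 2.76, 3.39 and 3.14 in whole animals. The groups overlapped, and the difference was -0.04 (interval -0.67 to 0.60, adjusted p = 0.933). The signal passed background on 1 of 3 whole-animal arrays and on all 3 PVD and OLL arrays, where that level was lower. At such a signal a small difference does not show equal amounts of RNA.

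Among the other numbered cadherins, cdh-5 was not called in either probe set. Probe set 192569_at read 4.08, 3.49 and 3.56 in PVD and OLL RNA, against 5.24, 4.29 and 4.61 in whole animals. The groups did not overlap, by 0.21, and the difference of -1.002 was not called (95% interval -1.70 to -0.31, adjusted p = 0.0640). It was called lower after repeated quantile normalization (-1.25, adjusted p = 0.0375), cyclic loess (-1.33, 0.0319), centring on array medians (-1.20, 0.0343) and with array weights (-1.06, 0.0273), and its sign turned with arrays centred on the bioB and bioC spike-in controls (0.24). Probe set 174613_at gave 2.64, 3.29 and 3.15 in PVD and OLL RNA and 2.48, 1.97 and 2.77 in whole animals, where all arrays were below background. It was not called (adjusted p = 0.173), and neither a fold nor a gap to the other probe set is given.

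cdh-8 was not called in either probe set. Probe set 186416_at read 3.02, 3.15 and 2.74 in PVD and OLL RNA, against 2.47, 2.41 and 2.38 in whole animals, where all arrays were below background. The groups did not overlap, and the fitted difference of 0.55 had an adjusted p of 0.0980. It was called with array weights (0.66, adjusted p = 0.0214). For 184607_at the means were 4.06 in PVD and OLL RNA and 3.91 in whole animals, a difference of 0.15 (95% interval -0.41 to 0.71). Over the 14 pairs of probe sets of 1 gene in the family, the lowest adjusted exact p was 0.35. Of the pairs that did not overlap between groups, that of cdh-10 alone had no probe set below background on all whole-animal arrays.

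**Figure D3:**
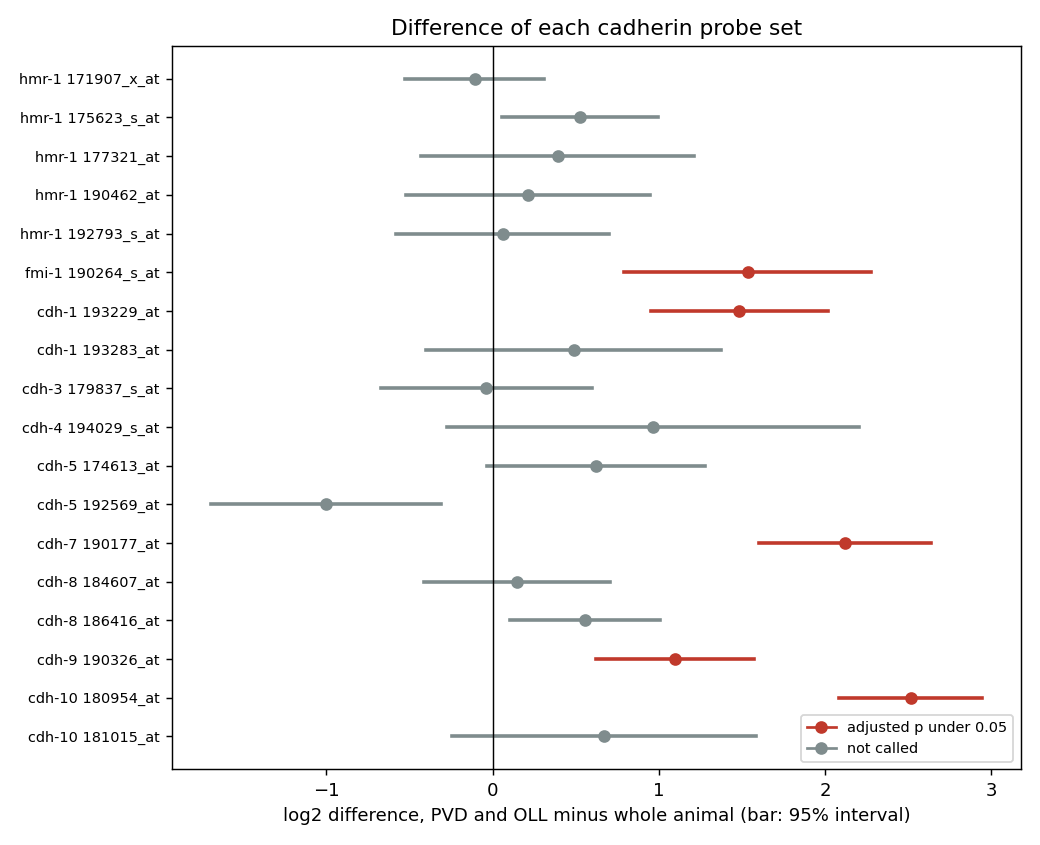
Log2 difference, PVD and OLL minus whole animal, of the 18 cadherin probe sets with limma's 95% intervals (red where the adjusted p was under 0.05, grey where not). The red points run from 1.10 for cdh-9 to 2.52 for cdh-10, and the second probe sets of cdh-1 and cdh-10 have intervals that cross 0.

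With probe sets of a gene averaged before the fit, the same 5 genes were called higher. The averaged differences were 1.59 ± 0.24 for cdh-10 (adjusted p = 0.00887) and 0.99 ± 0.25 for cdh-1 (0.0414), below those of their called probe sets. Those of hmr-1, cdh-5 and cdh-8 were 0.22 ± 0.18, -0.19 ± 0.23 and 0.35 ± 0.20 (SE, n = 3 arrays per group), and none was called (adjusted p = 0.429, 0.575 and 0.262). For PVD and OLL replicates 1, 2 and 3 taken singly, the called probe sets had median shifts of 1.87, 1.75 and 1.31 from the mean of the whole animals. Over all 18 probe sets these medians were 0.50, 0.81 and 0.35.

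A further pair of genes with cadherin repeats is not among the 10. casy-1, the calsyntenin gene that acts in learning and synaptic transport, read 4.89, 4.81 and 5.28 in PVD and OLL RNA and 2.66, 2.31 and 2.81 in whole animals in probe set 174826_at. All 3 whole-animal arrays lay below background, and that probe set was at least 3.57-fold higher in PVD and OLL RNA (adjusted p = 0.00419). The brighter probe set of casy-1, 187795_at, differed by 1.05 and was not called (adjusted p = 0.210). cdh-12 was higher in 2 of 4 probe sets, by 1.62 (adjusted p = 0.0448) and 1.05 (0.0341), but the calls failed in 5 and 4 of the 6 fits that left out an array (adjusted p up to 0.150 and 0.129). The probe set of cdh-12 with the larger difference read 5.54, 5.48 and 3.91 in PVD and OLL RNA, replicate 3 being far lower, and 3.26, 3.44 and 3.36 in whole animals.

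Lists of genes related to cadherins were counted by the brightest probe set of each gene. Over 17118 genes, 8.1% were so called higher and 4.66% lower, and the median difference was -0.07. Whether each listed gene acts with a cadherin was not tested. By the same measure 4 of the 10 cadherins were higher, 0 were lower and 6 were not called, with a median of 0.73. Of 20 genes of the cadherin-catenin complex and apical junction, 7 were called higher, 0 lower and 13 neither way, with a median of 0.67. Of those not called, dlg-1, par-6 and ajm-1 were called higher in another probe set. Among these were dlg-1 174906_s_at (at least 2.35-fold, adjusted p = 0.00889), par-6 175652_at (1.74, 0.0113) and ajm-1 188324_at (0.86, 0.0365). Conversely, afd-1, called by its brightest probe set, was at -0.42 in 175341_at and not called there (adjusted p = 0.240). The alpha-catenin gene hmp-1, whose product links HMR-1 to actin, read 8.37, 8.48 and 8.66 in PVD and OLL RNA and 7.18, 7.19 and 7.16 in whole animals, a difference of 1.33 ± 0.18 (adjusted p = 0.00695). It was called in 6 of 6 runs with 1 array left out. The beta-catenin gene hmp-2, its direct partner, had means of 6.32 in PVD and OLL RNA and 6.52 in whole animals and was not called (adjusted p = 0.587). A larger rise was that of zoo-1, a ZO-1-like junction protein gene, at 1.94 ± 0.35 (adjusted p = 0.0149, not called in 1 run with an array left out, at 0.0639). The p120-catenin gene jac-1 was 1.15 ± 0.30 higher (adjusted p = 0.0428, not called in 4 such runs, with p up to 0.141). With 1 array left out, between 1 and 7 of the 20 genes were called higher, and after repeated quantile normalization or cyclic loess 2 were.

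Of 11 genes listed as planar polarity partners of Flamingo, 3 were called higher and 0 lower (0 to 2 higher with 1 array left out, and 0 with cyclic loess). Whether each of them acts with Flamingo was not tested. The list median was 0.31. Centring arrays on their medians, which shifted all differences by -0.20, made it 0.11. The same step moved the median over all probe sets from -0.03 to -0.23. vang-1 and prkl-1, the Van Gogh and Prickle genes, were not called, with means of 4.10 and 3.39 in PVD and OLL RNA and 3.88 and 3.19 in whole animals. Of the genes not called by their brightest probe set, mom-5 was called higher in 174320_at (1.42, adjusted p = 0.0323), against -0.71 in the brightest. cam-1 was called higher in 174771_at (0.94, adjusted p = 0.04995). The genes called by their brightest probe set were receptors of Wnt signals. lin-17, a Frizzled gene, differed by 1.87 ± 0.44 (adjusted p = 0.0318), lin-18, a Ryk gene, by 1.02 ± 0.19 (0.0150), and cfz-2, another Frizzled gene, was at least 1.24-fold higher in probe set 173988_at (0.0490). Its other probe set, 190664_s_at, had the opposite sign and was not called (-0.43, adjusted p = 0.276). Leaving out single arrays ended these calls in 4, 2 and 6 of 6 runs, with adjusted p up to 0.106, 0.0668 and 0.128. Of 9 genes of Wnt-type beta-catenins and partners, 1 was called higher and 0 lower, with a median of 0.57. Over all genes 8.1% were called higher and 4.66% lower, so this count is near the share over all genes. The called gene was lit-1, a Nemo-like kinase gene, at 1.11 ± 0.30 (adjusted p = 0.0499), a call lost in 6 of 6 such runs (up to 0.165). Its probe sets 175738_s_at (0.53, adjusted p = 0.586) and 193634_s_at (1.04, 0.0738) were not called.

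The Hippo pathway, which in flies acts downstream of Fat, had 8 of 9 listed genes on the array. Of these, 4 were called higher and 0 lower (1 to 3 higher with 1 array left out), with a median of 0.96. The TEAD factor gene egl-44, which is also known as a regulator of neuron fate, read 5.42, 5.93 and 6.11 in PVD and OLL RNA and 4.18, 3.81 and 3.62 in whole animals. It was 1.95 ± 0.26 higher (adjusted p = 0.00633) and called in 6 of 6 runs with 1 array left out, while its second probe set, 193230_at, was not called (1.15, adjusted p = 0.0642). yap-1, the gene of its coactivator, was 1.26 ± 0.28 higher (adjusted p = 0.0275). The Salvador gene sav-1 differed by 1.27 ± 0.27 (0.0250) and the Hippo kinase gene cst-1 by 1.010 ± 0.25 (0.0400). The calls of these 3 genes were lost in 3, 4 and 5 of such runs, with adjusted p up to 0.109, 0.0847 and 0.146. Of 7 measured latrophilin and other adhesion partner genes, 2 were called higher and 0 lower (1 to 3 higher with 1 array left out), with a median of 0.89. They were nrx-1, the neurexin gene, at 2.22 ± 0.35 (adjusted p = 0.00954) and ptp-3, a LAR-type receptor phosphatase gene, at 1.63 ± 0.31 (0.0173, lost in 2 runs, up to 0.0564). On the whole-animal arrays nrx-1 and sav-1 each exceeded background on 1 of 3.

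**Figure D4:**
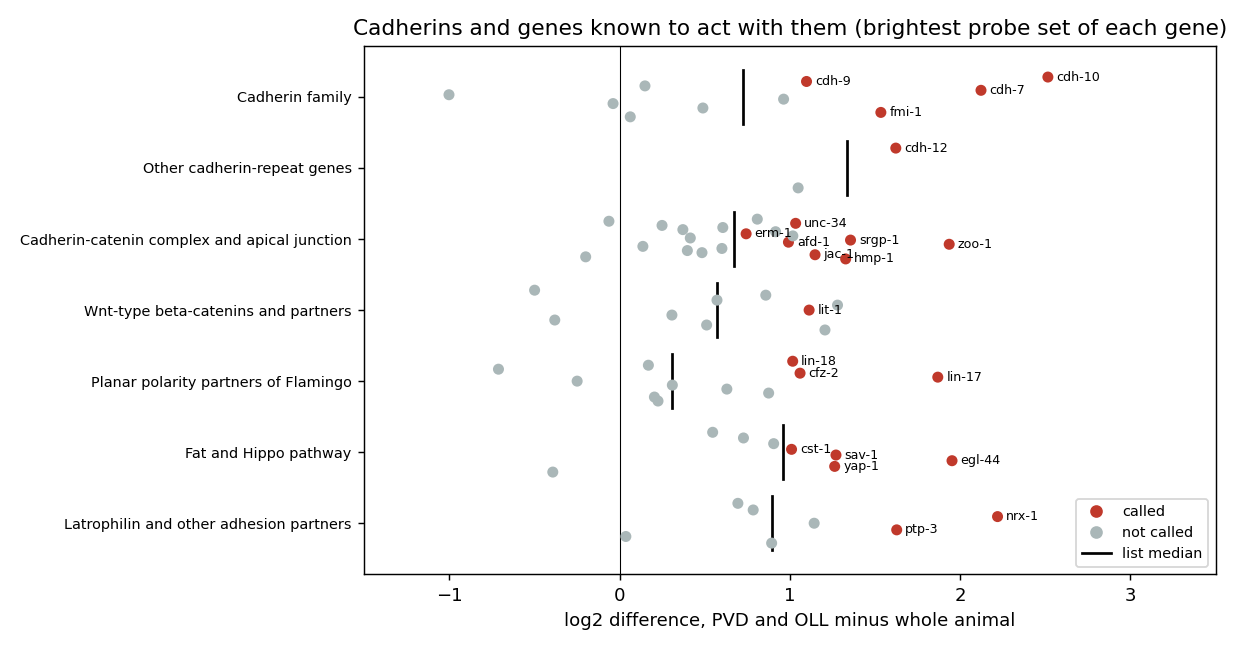
Log2 difference, PVD and OLL minus whole animal, of the brightest probe set of each gene in the cadherin family and in 6 related lists. Whether each listed gene acts with a cadherin was not tested. Red points were called, grey points were not, and black bars are list medians. All called genes lie right of 0; the list medians run from 0.31 for planar polarity genes to 1.34 for the other cadherin-repeat genes.

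Markers of other tissues were read on the same arrays, since cadherins are also made in epithelia; over all genes 8.1% were called higher and 4.66% lower. Of 10 measured epidermal and seam markers, 5 were called higher and 0 lower (1 to 4 higher with 1 array left out), with egl-18, a GATA factor gene of the seam, 1.76 higher. The mean signal of these markers ranged from 6.24 to 6.56 on PVD and OLL arrays and from 4.84 to 5.64 on whole-animal arrays. The seam homeobox gene ceh-16 lay below background on all 3 whole-animal arrays and at a mean of 2.56 in PVD and OLL RNA. Of 12 pan-neuronal genes, 7 were called higher and 0 lower, with mean signals of 6.30 to 6.99 on PVD and OLL arrays and 5.18 to 5.54 on whole-animal arrays. Of 8 pharyngeal markers, 2 were called higher, 0 lower and 6 neither way. The mean signals of the list were 5.48 to 5.69 on PVD and OLL arrays and 4.53 to 4.80 on whole-animal arrays. Those called were peb-1, 3.49 higher (adjusted p = 0.00512), and pha-4, 3.23 higher (0.0134), both more than the 2.52 of cdh-10. Each exceeded background on 2 of 3 whole-animal arrays. Of 7 measured glial markers, 2 were called higher and 0 lower, namely itx-1 and lit-1, which was also counted among the Wnt-type genes. The mean signals of the glial list were 4.45 to 4.53 on PVD and OLL arrays and 3.65 to 4.28 on whole-animal arrays. The markers ptr-10, ttx-1 and mls-2 lay below background on every whole-animal array, and none was called. They lay above it on all 3 PVD and OLL arrays, where that level was lower. Of 8 anchor cell, vulval and distal tip markers, 1 was called higher and 0 lower, at 4.04 to 4.28 on PVD and OLL arrays and 3.36 to 3.95 on whole-animal arrays. Of 8 body wall muscle markers, 1 was called higher and 1 lower, at 8.76 to 9.10 on PVD and OLL arrays and 8.55 to 8.95 on whole-animal arrays. Intestinal markers had 1 call higher and 2 lower of 8, at 6.82 to 7.10 on PVD and OLL arrays and 7.17 to 7.81 on whole-animal arrays. Germline markers had 0 higher and 1 lower of 8, at 5.78 to 6.16 on PVD and OLL arrays and 6.30 to 6.68 on whole-animal arrays. With any of the 6 arrays left out, no muscle or germline marker was called lower, 0 to 2 intestinal markers were called lower and 0 to 1 glial markers higher. Over the same runs 0 to 1 muscle markers and 0 to 1 anchor cell, vulval and distal tip markers were called higher, and 1 to 2 pharyngeal ones. The part of RNA from these tissues in the cadherin values was not tested.

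For each cadherin with a called probe set, the genes with the most similar profile over the 6 arrays were found among 11531 other genes above background, as the smallest Euclidean distance between profiles centred on their own mean. The distance is on the log2 scale, and arrays of 2 groups make up most of every profile. Nearest to cdh-10 were hmbx-1 (distance 0.34), a homeobox gene, and F37H8.2 (0.36). Nearest to cdh-7 were pqn-65 (0.27) and cpr-1 (0.30), a cathepsin B-like protease gene of the intestine. Those nearest to fmi-1 were H12D21.10 (0.25) and plc-1 (0.26), a phospholipase C gene, and those nearest to cdh-1 were M02E1.1 (0.27) and ZC328.3 (0.28). R10E4.1 (0.17) and eps-8 (0.21), an actin-capping protein gene, were closest to cdh-9. All 10 of these genes were themselves called higher in PVD and OLL RNA, which follows largely from matching them to called probe sets.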

How the data were processed

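RNA of 3 PVD and OLL preparations and 3 whole-animal preparations was measured on 6 one-colour Affymetrix arrays. The authors deposited 1 value per probe set and array on a log2 scale, summarised with RMA per the submitters' processing notes, which give no software version. The log2 base is read from the range of the deposited values (1.21 to 13.9), so every fold rests on it. Scanner files and scan dates were not analysed here.

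Of 22625 probe sets, 77 controls were left out. Names came from the array's annotation, updated through RefSeq (assembly WBcel235, names and chromosomes only): 20766 probe sets had 1 gene, 887 several and 895 none listed; 20701 names came from RefSeq and 65 were kept from the array. Differences were fitted with limma 3.58.1 (lmFit, eBayes) in R 4.3.3, PVD and OLL minus whole animal, two-sided; errors are moderated standard errors. A fold is a bound against the background level where no array of a group exceeded it. The number of arrays limits the precision. Data were simulated for this comparison, with 22548 probe sets and 50 changed at each size. The share recovered was 2% at a log2 change of 1, 54% at 2, 4% at -1 and 60% at -2. Over all sizes, 4 of 64 calls were false. The fit of the real arrays called 3063 probe sets, so its cut-off on p was less strict and these shares do not carry over to it.

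Members and lists were chosen with earlier results of these data known, so no p is adjusted over them alone. Named genes were every member, up to 4 called genes per list by size of difference (without a call, the first 2 measured), and the 2 nearest profiles of each called cadherin. One gene that this rule names in the junction list is not reported here. Other genes (hmp-2, dlg-1, par-6, ajm-1, afd-1, vang-1, prkl-1, mom-5, cam-1, ser-2, F49H12.4 and the markers) were chosen after their values were seen. Alternatives were repeated normalizations, array centrings, filters, variance settings, a replicate block and arrays left out.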

Additional observations from a re-analysis of the deposited data

How the results depend on the processing

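The calls of cdh-10 (180954_at), cdh-7 and cdh-1 (193229_at) held under every alternative run, and that of fmi-1 under all but 3 runs with 1 array left out (its probe set, an _s_at one, was not in the fit restricted by name). The call of cdh-9 was lost in 2 such runs and with the replicate block, and no called cadherin changed sign. The count of cadherin probe sets called higher stayed between 3 and 6 with 1 array left out. Over all probe sets, 785 to 3239 were then called, against 3063 with all arrays. These counts were lowest without PVD and OLL replicate 2 (3 cadherin probe sets), and without PVD and OLL replicate 1 there were also 3. Without replicate 3 of both groups, 5142 probe sets were called, 6 of them cadherins. Array weights gave 6802, with 7 cadherin probe sets called higher (cdh-4 and cdh-8 186416_at added), the restriction to probe sets not ending in _s_at or _x_at 1786. Why the counts moved was not tested, beyond the smaller number of arrays or probe sets.

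A check of replicate numbers gave no sign of pairing. Deviations from group means correlated at -0.05, -0.07 and -0.10 between same-numbered arrays, and no PVD and OLL array correlated best with its own number. With so few arrays per group, it cannot show that same-numbered samples share nothing. With the replicate block 1629 probe sets were called, 4 of them cadherins, and cdh-9 was at an adjusted p of 0.0519.

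Scaling moved the direction of small differences. The share of calls that were higher in PVD and OLL RNA was 68.5% as deposited and 43.1% with median centring. Cyclic loess gave 52.6%, a second quantile normalization 54.2% and centring on bioB and bioC 99.5%. Centring on bioB and bioC shifted all differences by 1.24 and gave 12818 calls, 17 of them cadherin probe sets, while medians shifted them by -0.20. After quantile normalization, cyclic loess, median centring or array weights 1 cadherin probe set was called lower, cdh-5 192569_at. With quantile normalization the sign turned for hmr-1 171907_x_at (0.12), hmr-1 190462_at (-0.036), hmr-1 192793_s_at (-0.13) and cdh-8 184607_at (-0.12), and with cyclic loess for the same probe sets (0.10, -0.039, -0.14 and -0.14). Median centring turned hmr-1 192793_s_at (-0.14) and cdh-8 184607_at (-0.053), and centring on proteasome genes turned cdh-3 (0.047). Use of bioB and bioC turned hmr-1 171907_x_at (1.13), cdh-3 (1.202) and cdh-5 192569_at (0.24). With 1 array left out the difference ran from -0.051 to 0.56 for hmr-1 190462_at, from -0.10 to 0.29 for hmr-1 192793_s_at and from -0.24 to 0.15 for cdh-3, and without replicate 3 of both groups hmr-1 190462_at was at -0.061. These probe sets were not called with the deposited values, and the cause was not tested.

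Of the called cadherin probe sets, 1 (fmi-1) lay below background on all whole-animal arrays at the 95th percentile of the controls. The number was 0 at the 90th percentile and 5 at the highest control, both chosen after seeing the data, so the bounds depend on that level. Signal near background on the whole-animal arrays limits how far the folds of fmi-1, cdh-1, cdh-9 and cdh-10 can be read. The same limit applies to the differences of jac-1, par-6 (175652_at), sav-1 and nrx-1, each above background on 1 whole-animal array.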
